A study of Mus musculus with 30 samples.

Results

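The genes described here differed in liver RNA level between inbred mice of the CC019 and CC037 strains, while their CC019 and CC037 alleles had nearly equal mean levels in F1 mice that carried both. They were chosen on these measured values. For each autosomal gene, S was the log2 ratio of the mean of 6 CC019 inbreds to the mean of 9 CC037 inbreds in CPM (counts scaled to library size). A was the log2 ratio of the mean CC019 allele to the mean CC037 allele in 14 F1s, and 0.05 CPM was added to every mean. A gene entered the choice if, in each inbred, at least 90% of counts were assigned to the allele of its strain and if its total averaged at least 1 CPM over 29 mice, which 3934 of 42880 genes did. Of these, 113 had an absolute S of at least 0.6 and an absolute A below 0.15. Because S and A chose the genes, both are given as descriptions.

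A sequence difference that acts in cis changes the RNA made from the chromosome on which it lies, so the alleles of an F1 still differ when they share a nucleus. A difference that acts in trans, through a diffusible factor or the state of the whole animal, reaches both alleles of an F1 alike. Liver genes of lipid and glucose synthesis, of the circadian clock and of the acute phase response are well known for following such shared factors, among them insulin, hormones, cytokines and feeding.

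RNA came from livers of mice aged 4 months. Both strains belong to the Collaborative Cross, a panel of inbred mouse lines bred from several founder strains. There were 6 CC019 inbreds (3 males and 3 females), 9 CC037 inbreds (4 males and 5 females), 6 CC019xCC037 F1s (3 males and 3 females) and 8 CC037xCC019 F1s (3 males and 5 females), with the maternal strain written first. A further CC019xCC037 female, number 5, was left out. Gene counts per liver ran from 27672008 to 63258035 (median 37888559). Hepatocyte markers were high in every mouse, with *Alb*, which encodes albumin, the most abundant of them. The inbred and F1 libraries compared here were sequenced in separate batches, so any difference between them cannot be told apart from the batch. The authors sequenced some inbreds in both batches, and a comparison of those libraries was not analysed here.

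Of the 113 genes, 72 were higher in CC037 (median S −0.74) and 41 were higher in CC019 (median S 0.94). The median absolute S was 0.80 and the median absolute A was 0.08, against 0.22 and 0.17 over all 3934 genes. The genes were expressed at a median of 5.60 TPM, a unit that corrects for transcript length, against 10.6 over all 3934. The genes nearest to the limit on S were *Clec1b* (−0.61) and *Itga9* (−0.60) inside it, and *Gm26616* and *Sema6a* (both −0.60 after rounding) outside it. Those nearest to the limit on A were *Foxa3* (0.14) and *Dapk1* (−0.15) inside it, and *Qtrt1* (0.15) outside it.

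**Figure D1:**
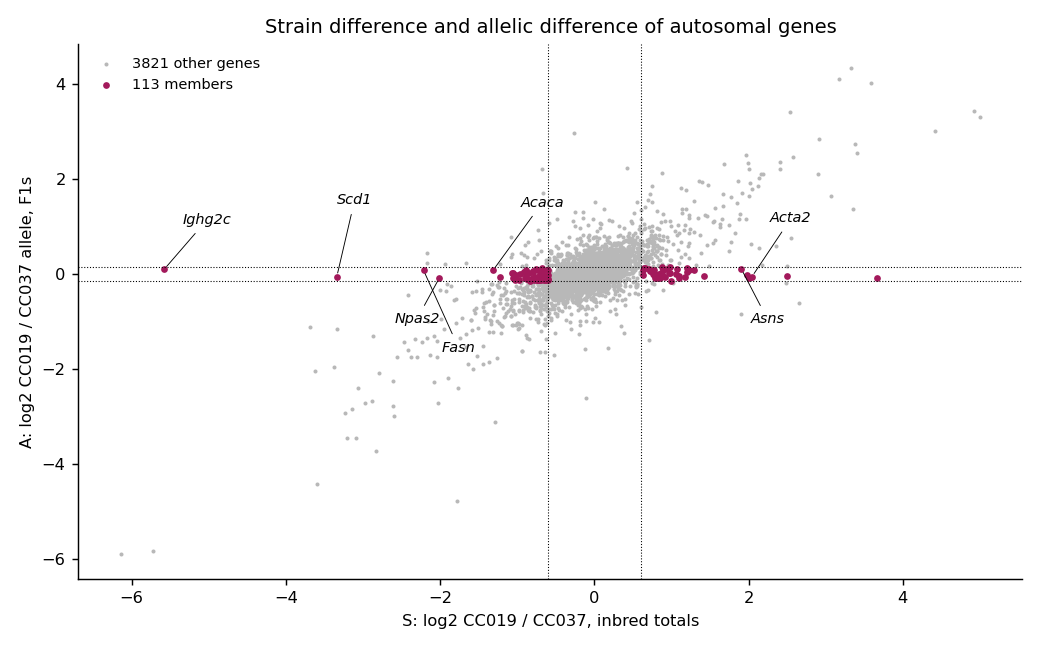
Each dot is an autosomal gene, with S (log2 ratio of CC019 to CC037 inbreds) on the horizontal axis and A (log2 ratio of the CC019 to the CC037 allele in F1s) on the vertical axis. Dotted lines mark the limits of 0.6 on S and 0.15 on A, and the 113 coloured genes lie beyond the former and within the latter.

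The allelic ratio of these genes was near 0 on average, with a precision that varied widely. Standard errors of the allelic log2 ratio were available for the 109 genes that reached 0.5 CPM in most of the mice, and ran from 0.01 to 0.72 with a median of 0.09. They were below 0.1 in 57 genes and above 0.2 in 23, where the data could not tell an equal pair of alleles from a moderate difference. As a description of precision only, the fitted ratio of 17 of the 109 had an adjusted p below 0.05, and over all tested genes 48.1% did. The lower share among the members follows from choosing them on A. The fitted ratios of the 17 included 0.08 for *Fasn* and, beyond 0.15, 0.25 for *Gsn*, 0.22 for *Csrp1*, −0.18 for *Mylip* and 0.16 for *Foxa3*. *Khk*, the ketohexokinase that starts fructose breakdown, had a lower CC019 allele in all 14 F1s, with ratios from −0.19 to −0.05. The limit on A applied to the mean of all F1s: A stayed below 0.15 in absolute value within each cross in 64 of the 113 (1161 of all 3934) and within each sex in 58 (1141 of all 3934). All 113 met this limit over all F1s by choice, as did 1763 of the 3934. The 1161 and 1141 are therefore best set against 1763, and the members did not hold the limit more often. The F1 female that was left out had a ratio within 0.15 of 0 at 38.1% of the genes, against 29.6% of all 3934, and in the other F1s this share of the genes ran from 26.5 to 42.5%.

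The totals of the members varied more from mouse to mouse than those of other genes. Over the 14 F1s the median standard deviation was 0.53 for the log2 total and 0.37 for the log2 allelic ratio, against 0.21 and 0.26 over all 3934 genes. In the 545 genes with an absolute S of at least 0.6 and a larger A they were 0.37 and 0.41, so a wide ratio was not particular to the members. The total varied more than the ratio in 77 of the 113 (68.1%), against 41.1% of all genes that passed the filters. *Fasn* showed this most plainly, with a standard deviation of 0.94 for its total and 0.07 for its allelic ratio, so that both alleles moved together from mouse to mouse. The least variable totals were those of *Secisbp2l* (0.15), *Gm17491* (0.18) and *Dag1* (0.19), and the most variable those of *Aoc3* (2.30), *Acta2* (2.13) and *Prc1* (1.94). *Aoc3* had an F1 median of 0.236 CPM and a highest value of 28.4 CPM, and *Acta2* 3.57 and 309.8 CPM. Among the F1s, CC019xCC037 male 3 held white fat markers and CC019xCC037 female 1 skeletal muscle markers. Their part in this spread was not tested. The ratio was steadiest in *Khk* (0.04), *Igfbp2* (0.06) and *Fasn*, and least steady in *Rab3il1* (2.32) and *Pkia* (2.07), whose F1 means were 4.41 and 1.76 CPM.

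The strains did not overlap in 19 of the 113 genes, a description since S chose them, and in 11.9% of all 3934. An S of at least 0.6 in absolute value held in 55 genes whichever inbred was left out (464 of all 3934). It reached 0.6 in 106 genes among males (1063 of all 3934) and in 46 among females (609 of all 3934). It did so in both sexes with the same sign in 38 (360 of all 3934). All 113 had such an S by choice and most of the 3934 did not. The closer comparison is with the 545 genes that had an absolute S of at least 0.6 and a larger A. In these the strains did not overlap in 49.5%, against 16.8% of the members. S held in 409 of the 545 whichever inbred was left out and reached 0.6 in both sexes in 322, so the strain difference was less steady in the members. The mean of the F1s lay between the means of the strains in 63 genes (44.6% of all 3934), above both in 34 (1633 of all 3934) and below both in 16 (547 of all 3934). It lay between them in 55.8% of the members and in 82.4% of the 545. It was nearer to CC037 in 79 of the 113 and in 2350 of all 3934. Of the 72 genes higher in CC037, the F1 mean was nearer to CC037 in 60, and of the 41 higher in CC019 it was nearer to CC019 in 22.

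Members that encode enzymes of fatty acid synthesis were lower in CC019. *Scd1*, the desaturase that makes monounsaturated fatty acids, averaged 1944 TPM over the 29 mice. In CC019 males it stood at 95.7, 162 and 550 CPM and in CC019 females at 1645, 3148 and 2963 CPM. CC037 mice ranged from 7487 CPM through a median of 13363 to 21727 CPM, above every CC019 mouse. S was −3.34 over both sexes, −5.95 in males and −2.29 in females. In the F1s its alleles averaged 2243 CPM (CC019) and 2329 CPM (CC037), and the ratio of the alleles within a mouse ran only from −0.21 to 0.05.

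*Fasn*, fatty acid synthase, ran from 200 CPM through a median of 492 to 681 CPM in CC019 and from 943 through 1627 to 3210 CPM in CC037, again without overlap. The F1s spanned both strains, from 506 to 4436 CPM. *Acaca*, the acetyl-CoA carboxylase that supplies malonyl-CoA, ran from 67.6 to 140 CPM with a median of 110 in CC019 and from 175 to 333 CPM with a median of 260 in CC037, while the F1s ran from 145 to 370 CPM. *Acsl5*, which activates long-chain fatty acids, ran from 251 to 396 CPM with a median of 333 in CC019 and from 450 to 871 CPM with a median of 554 in CC037. *Tkt*, the transketolase of the pentose phosphate pathway, which supplies NADPH, ran from 109 to 140 CPM in CC019 and from 151 to 226 CPM in CC037. None of these 4 enzymes overlapped between the strains.

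*Srebf1* encodes SREBP-1, a transcription factor that activates genes of fatty acid synthesis. It ran from 153 through 240 to 369 CPM in CC019 and from 278 through 436 to 575 CPM in CC037, so that the strains overlapped. Its S was −1.40 in males and −0.28 in females. The strains were apart in males and overlapped in females.

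**Figure D2:**
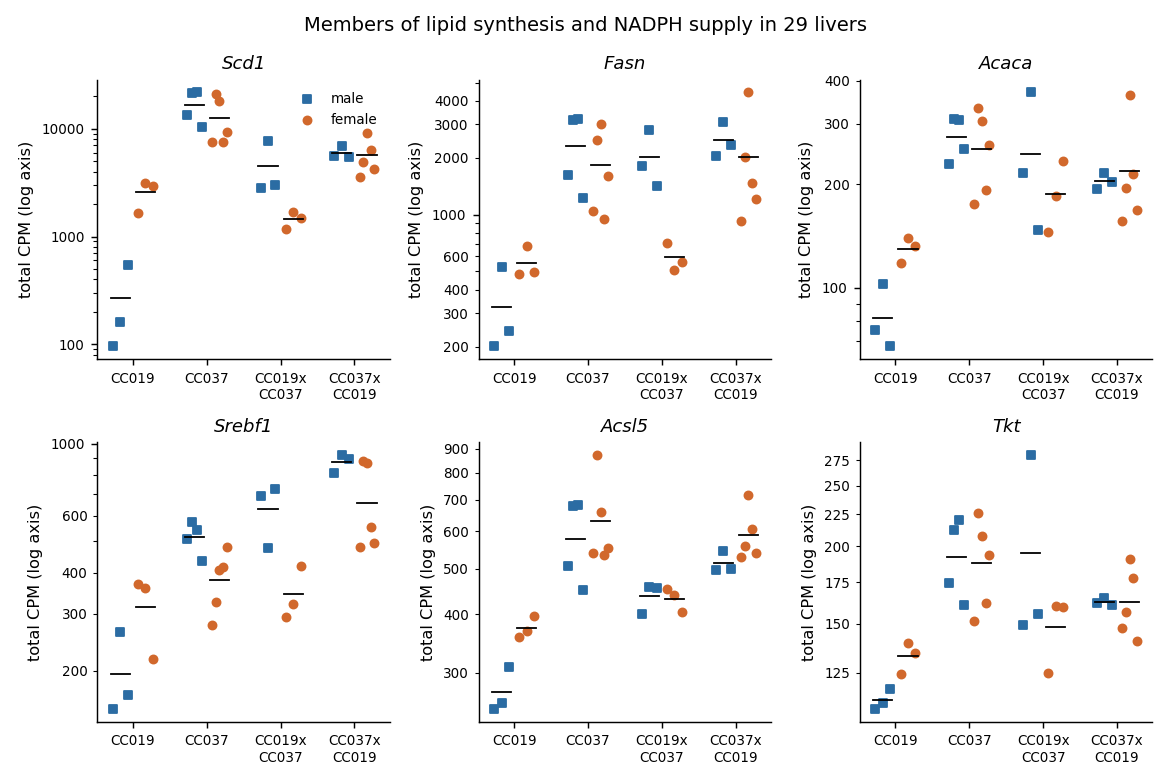
Each panel shows a gene of lipid synthesis, lipid activation or NADPH supply, with CPM on a log axis and the 4 groups on the horizontal axis. Squares are males, circles are females and black bars are means per group and sex. CC019 males have the lowest mean in each panel, and they lie below CC019 females for *Scd1*.

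Most other genes of this pathway were also lower in CC019. In the list of fatty acid synthesis, 16 of 20 tested genes were lower in CC019 and 0 were higher (median log2 fold change −1.53, against 0.01 over all 13185 expressed genes, of which 11.3% were lower and 12.7% higher). Of these 16, 4 were members, chosen on this contrast. Among the others *Elovl5* differed by −1.40 ± 0.19 (SE), *Acly*, which makes cytosolic acetyl-CoA, by −1.91 ± 0.31, *Me1*, which makes NADPH, by −2.23 ± 0.43 and *Acss2* by −1.64 ± 0.28. Of the 20 genes, 11 passed the filters on allele and level, so the others could not be members. In the list of gluconeogenesis, glycogen and glycolysis 6 of 21 were lower and 1 higher, with *G6pc*, the glucose-6-phosphatase that releases glucose from the liver, as its member. *G6pc* stood at 170 to 277 CPM in CC019 and at 211 to 714 CPM in CC037, where the males (363 to 714 CPM) were higher than the females (211 to 319 CPM).

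Sex and cross direction were compared as well. The strain by sex contrast uses the inbreds whose mean difference chose the genes, and the cross contrast uses F1s whose allelic ratios chose them. Strain by sex, the strain difference in females minus that in males, was 3.43 ± 0.76 for *Scd1* (adjusted p = 0.00972, edgeR quasi-likelihood test with Benjamini-Hochberg adjustment), 0.94 ± 0.31 for *Srebf1* (adjusted p = 0.048) and 0.90 ± 0.29 for *G6pc* (adjusted p = 0.0472). Between the crosses, CC019xCC037 F1s were lower by −1.32 ± 0.35 for *Scd1* (adjusted p = 0.0465, 5 of 6 mice), by −0.77 ± 0.19 for *Srebf1* (adjusted p = 0.0419, 6 of 6 mice) and by −0.41 ± 0.09 for *Acsl5* (adjusted p = 0.0275, 6 of 6 mice). For *Acsl5* the crosses did not overlap, at 401 to 456 CPM in CC019xCC037 and 496 to 719 CPM in CC037xCC019. The F1 level of *Srebf1* exceeded the midpoint of the strains by 0.75 ± 0.15 (adjusted p = 0.000711, 12 of 14 mice). *Fasn* and *Acaca* passed the threshold in none of these 3 tests. Several of these calls depended on which mice were included. Strain by sex kept its call for *Srebf1* only without CC019 male 2, CC019 female 3, CC037 male 4 or CC037 female 5 (4 of 15 fits, highest adjusted p = 0.118), and for *G6pc* only without CC019 male 1, CC037 male 3 or CC037 female 4 (3 of 15 fits, highest adjusted p = 0.116). The cross difference kept its call for *Scd1* only without CC019xCC037 male 3 or male 4 (2 of 14 fits, highest adjusted p = 0.105), and for *Srebf1* only without CC019xCC037 male 2 or male 4 or CC037xCC019 female 1 (3 of 14 fits, highest adjusted p = 0.0976).

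The promoters of the lipid genes were searched for letters known from sterol control. Of the 113 genes, 84 matched a table of RefSeq promoters (build GRCm38.p6), each a window of 250 bases before to 50 bases after a transcript start, with 110 windows for the members and 32851 for all genes. The sterol regulatory element TCACNCCAC, on either strand, was in 1.82% of member windows and 1.24% of all windows, and in the members it was found for *B4galnt3* and *Cd48* and for none of the lipid genes, which says only that these letters are not in those windows. The CCAAT box CCAAT, on either strand, was in 40% of member windows and 37.4% of all. The promoter of *Fasn* is shown because its total varied most against its allelic ratio. It lies at chr11:120824498-120824797 on the minus strand of GRCm38.p6, and capitals mark the CCAAT box on either strand.
Fasn: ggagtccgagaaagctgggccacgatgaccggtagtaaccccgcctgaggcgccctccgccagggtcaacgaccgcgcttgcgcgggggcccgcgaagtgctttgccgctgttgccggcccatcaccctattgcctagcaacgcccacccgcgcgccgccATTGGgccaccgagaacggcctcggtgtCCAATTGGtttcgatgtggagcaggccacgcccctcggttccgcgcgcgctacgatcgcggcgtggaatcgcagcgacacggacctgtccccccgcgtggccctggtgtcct

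The circadian clock of the liver is a loop in which BMAL1 (the product of *Arntl*) pairs with CLOCK or NPAS2 and activates genes whose products repress that pair. Its genes rise and fall within a day, so a liver taken at a different phase shows a different level. The hour at which each liver was taken was not used here. A clock score was computed for each mouse on the log2 CPM scale: the average of *Ciart*, *Dbp* and *Tef*, from which the average of *Clock*, *Npas2* and *Arntl* was subtracted.

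The members in the list of core clock genes were *Npas2* and *Per3*, a period gene of the repressing arm. *Npas2* ran from 0.411 through 0.714 to 1.02 CPM in CC019 and from 1.29 through 1.96 to 7.84 CPM in CC037, and no mice of the strains overlapped. CC019xCC037 males had 0.650, 1.9 and 0.843 CPM, their sisters had 6.70, 8.42 and 6.36 CPM, and CC037xCC019 mice of both sexes had 6.28 to 11.5 CPM. The males of that cross thus lay within the range of the inbreds, and most other F1s lay near or above the highest inbred. *Per3* moved the other way: CC019 females had 35.7, 34.4 and 31.1 CPM, CC019 males 6.29, 13.5 and 2.64 CPM, and CC037 mice 2.85 to 24.3 CPM. CC019xCC037 males had 26.3, 17.8 and 13.9 CPM, above the females of their cross (3.35 to 4.33 CPM) and all CC037xCC019 mice (1.48 to 9.70 CPM). S of *Per3* was 1.28 in females and −0.75 in males, and its strain by sex contrast did not pass the threshold (1.85 ± 0.80, adjusted p = 0.12).

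The clock score, of which *Npas2* is a part, partly restates these levels. It was 3.32 ± 0.05 (SD) in CC019 females and 2.51 ± 0.81 in CC019 males, ran from −1.62 to 2.06 in CC037, from −2.04 to −1.66 in CC019xCC037 females and from 1.495 to 3.28 in CC019xCC037 males. CC037xCC019 mice lay between −3.29 and −1.42, so the CC019xCC037 males stood apart from every other F1.

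**Figure D3:**
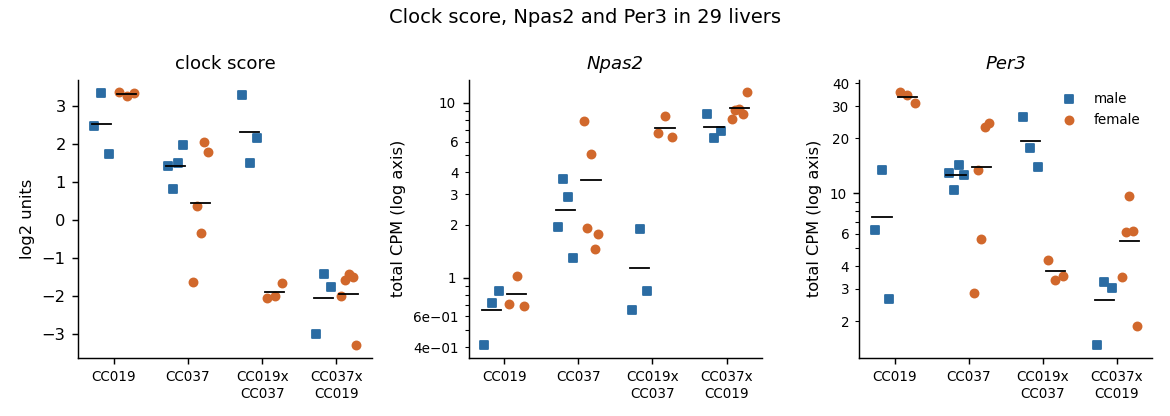
Panels show the clock score and the CPM of *Npas2* and *Per3* in each mouse by group, with squares for males, circles for females and black bars for means per group and sex. CC019xCC037 males differ from the other F1s in each panel.

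Cross by sex asked whether the difference between the crosses was the same in females and males. It was called in 3 of 109 members (2.75%, against 0.652% of all tested genes), 1 higher (0.334% of all) and 2 lower (0.319% of all). *Npas2* was at 2.22 ± 0.35 (adjusted p = 0.0169), *Per3* at −3.51 ± 0.65 (adjusted p = 0.0319) and *Junb*, a subunit of the AP-1 transcription factor, at −2.80 ± 0.51 (adjusted p = 0.0319). *Junb* stood at 86.3, 78.4 and 87.1 CPM in CC019xCC037 males and at 11.4, 23.3 and 22.1 CPM in CC037xCC019 males, and the females of the crosses overlapped. With the clock score as covariate no member was called: *Npas2*, which is part of the score, was at 0.74 (adjusted p = 0.806), *Per3* at −0.08 (adjusted p = 0.988) and *Junb* at −2.95 (adjusted p = 0.806). The score itself set CC019xCC037 males apart from every other F1, so this fit cannot tell the score apart from cross by sex. In the core clock list 3 of 15 genes were higher and 2 lower, with a median of −0.64. The count of 3 members rested on a few mice. It fell to 0 without CC037xCC019 male 1 and to 1 without CC019xCC037 male 2, female 2 or female 4 or CC037xCC019 male 2, male 3 or female 4. It rose to 12 without CC019xCC037 male 3 and to 15 without CC019xCC037 female 1. *Npas2* missed the threshold without CC037xCC019 male 1 (adjusted p = 0.0619). *Junb* missed it without CC019xCC037 male 2, male 4, female 2 or female 4 or CC037xCC019 male 1, male 2, male 3, female 1 or female 4 (adjusted p from 0.0506 to 0.0987). *Per3* missed it without CC019xCC037 male 2, female 2 or female 4 or CC037xCC019 male 1, male 2, male 3, female 2 or female 4 (adjusted p from 0.0577 to 0.0987).

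The slope on the clock score within groups and sexes was called in 3 of 109 members (2.75%, against 1.33% of all), 1 higher (0.751% of all) and 2 lower (0.576% of all). *Per3* rose by 0.84 ± 0.08 per unit of the score (adjusted p = 1.34e-06). *Npas2* changed by −0.56 ± 0.08 (adjusted p = 0.00112), which is circular because it is part of the score. *Spon2*, a secreted matrix protein, changed by −0.57 ± 0.12 (adjusted p = 0.0196), with 3.2 to 9.67 CPM in CC019, 2.37 to 16.2 CPM in CC037 and 3.98 to 17.7 CPM in the F1s, all overlapping. *Spon2* passed the threshold neither without CC037 female 1 (adjusted p = 0.0693) nor without CC037 female 5 (adjusted p = 0.0744), and the count of members rose to 6 without CC019xCC037 female 1. In F1s alone no member was called, with *Per3* at 0.78 (adjusted p = 0.426).

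The D-box TTATGTAA, the letters bound by DBP and TEF, was sought on either strand of the promoters. It was in 0.909% of member windows and 0.938% of all, and *Per3* was the member that held it, with 2 copies. The promoter of *Per3* is shown for these copies, marked by capitals, and lies at chr4:151044616-151044915 on the minus strand of GRCm38.p6 as given by RefSeq.
Per3: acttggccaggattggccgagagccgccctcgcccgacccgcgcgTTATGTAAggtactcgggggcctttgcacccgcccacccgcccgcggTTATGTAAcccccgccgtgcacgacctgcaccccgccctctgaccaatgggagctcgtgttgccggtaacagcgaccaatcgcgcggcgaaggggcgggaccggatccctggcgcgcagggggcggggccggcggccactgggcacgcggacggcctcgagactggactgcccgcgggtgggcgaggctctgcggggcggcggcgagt

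Male and female livers differ in many genes, largely through the sex-specific rhythm of growth hormone, and strains may differ in that response. Strain by sex was called in 35 of 109 members (32.1%, against 17.9% of all tested genes). It was higher, meaning that CC019 lay further below CC037 in males than in females, in 18 members (8.78% of all) and lower in 17 (9.12% of all). All 18 of the former were genes higher in CC037, and 15 of the latter were genes higher in CC019. S and this contrast share the same inbreds, so neither the share of members called nor the match of their signs is separate from how the genes were chosen. The count fell to 20 without CC019 female 2.

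Several of these members had CC019 males apart from the other inbreds. *Cyp39a1*, an oxysterol hydroxylase of bile acid synthesis, stood at 1.80, 2.10 and 4.99 CPM in CC019 males, at 46.3, 44.3 and 35.4 CPM in CC019 females and at 36.6 to 74.3 CPM in CC037. *Klb*, the coreceptor for FGF21 and FGF15, stood at 13.4, 17.8 and 22.6 CPM in CC019 males and at 46.0 to 68.9 CPM in CC037. *Capn10*, a calpain protease, stood at 19.6 to 21.6 CPM in CC019 males, at 37.4 to 40.8 CPM in CC019 females and at 45.0 to 57.6 CPM in CC037. In these 3 genes CC019 males were below every other inbred. *Mbd1*, a reader of methylated DNA, went the other way, with 101, 128 and 195 CPM in CC019 males against 33.4 to 35.7 CPM in CC019 females. *Gdf15*, a stress-induced hormone, stood at 11.2, 16.4 and 12.7 CPM in CC019 males and at 1.43 to 2.95 CPM in CC037 males, while the females of the strains overlapped. The contrasts were 3.29 ± 0.41 for *Cyp39a1* (adjusted p = 0.000391), −2.05 ± 0.30 for *Mbd1* (adjusted p = 0.00111), −2.80 ± 0.43 for *Gdf15* (adjusted p = 0.00139), 1.36 ± 0.22 for *Klb* (adjusted p = 0.00221) and 0.71 ± 0.12 for *Capn10* (adjusted p = 0.00292).

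**Figure D4:**
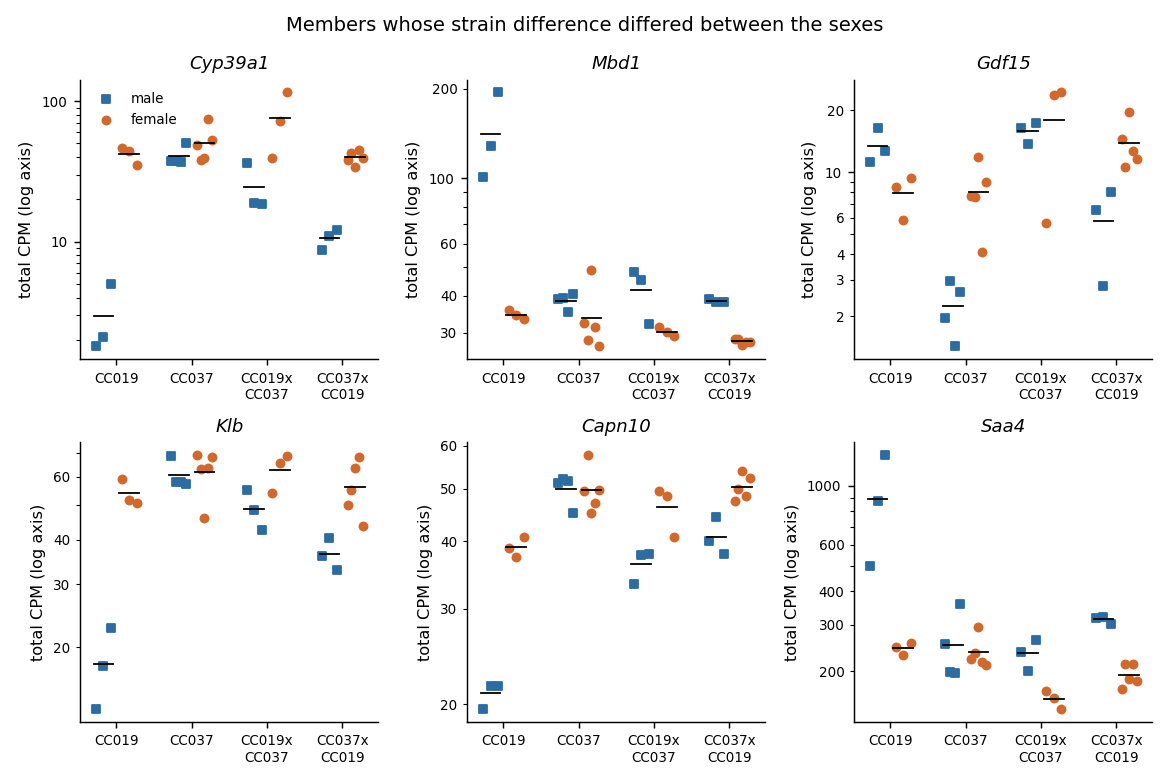
Each panel shows the CPM of a gene in each mouse by group, with squares for males, circles for females and black bars for means per group and sex. In the inbreds the distance between the sexes differs between CC019 and CC037.

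The near equal alleles of *Cyp39a1* were an average over the sexes. A was 0.19 in females and −1.31 in males. In the F1 males the CC019 allele gave 13.1, 6.36, 5.40, 1.37, 1.91 and 2.02 CPM and the CC037 allele 23.2, 12.6, 13.1, 7.34, 9.13 and 10.1 CPM, so the CC019 allele was the lower in each of the 6. Within F1 females the ratio ran from −0.17 to 0.70. The allelic ratio by sex was called in 3 of 109 members (2.75%, against 2.17% of all), 1 higher in females (0.888% of all) and 2 lower (1.28% of all). These were *Cyp39a1* (1.87 ± 0.22, adjusted p = 0.000227), *Saa4* (−0.14 ± 0.03, adjusted p = 0.0293) and *Scd1* (−0.13 ± 0.03, adjusted p = 0.0424). The count fell to 1 without CC019xCC037 male 2, male 4 or female 2 or CC037xCC019 male 2, male 3, female 2 or female 3, and *Cyp39a1* kept its call throughout. *Scd1* kept its call in a single fit with a mouse left out, that without CC019xCC037 female 1, and had an adjusted p from 0.0529 to 0.103 without each other F1. *Saa4* had an adjusted p from 0.059 to 0.0995 without CC019xCC037 male 2, male 4, female 1 or female 2 or CC037xCC019 male 2, male 3, female 2 or female 3.

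The acute phase response is the rise of plasma proteins that the liver makes under cytokines. *Saa4*, a serum amyloid A protein, stood at 501, 875 and 1303 CPM in CC019 males, at 231 to 256 CPM in CC019 females, at 198 to 357 CPM in CC037 and at 144 to 321 CPM in the F1s. *Steap4*, a metalloreductase, stood at 142, 168 and 691 CPM in CC019 males, and its S was −0.17 without CC019 male 3. *Cebpb*, a transcription factor of this response, stood at 168, 110 and 295 CPM in CC019 males and at 56.0 to 103 CPM in CC037. CC019 males were thus above the other inbreds for *Saa4* and *Cebpb* and overlapped them for *Steap4*. In the list of the acute phase response, strain by sex was lower in 11 of 22 genes (9.12% of all genes) and higher in 0 (median −1.0), including *Hp* (−1.77) and *Saa2* (−11.62). *Saa4* belongs to a gene family, and reads may be shared among its members.

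Sex alone was compared within F1s and within inbreds. In the F1s it was called in 37 of 109 members (33.9%, against 21.9% of all), 25 higher in females (11.5% of all) and 12 lower (10.5% of all). In the inbreds it was called in 33 (30.3%, against 28.3% of all), 21 higher in females (14.3% of all) and the others lower. *Aox3*, an aldehyde oxidase, was the most clearly sex-dependent, with 174 to 282 CPM in all females and at least 695 CPM in all males. The difference was −2.63 ± 0.12 in F1s (adjusted p = 4.35e-09, 8 of 8 females) and −2.22 ± 0.15 in inbreds (adjusted p = 9.76e-08, 8 of 8 females). *Zfp141*, a zinc finger protein, ran from 2.45 to 3.48 CPM in females and from 4.49 to 10.1 CPM in males, and *Enpp2*, which makes lysophosphatidic acid, differed by −1.39 ± 0.15 in the inbreds (adjusted p = 1.21e-05) and by −0.35 ± 0.19 in the F1s (adjusted p = 0.206).

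Members higher in females included genes known from immune cells as well as genes of hepatocytes such as *Klb* and *Cyp39a1*. *Il18bp*, which binds interleukin 18, stood at 4.31 to 5.37 CPM in F1 males and 8.17 to 11.1 CPM in F1 females. *Syk*, a kinase of immune receptors, stood at 3.21 to 6.02 CPM in F1 males and 5.86 to 10.4 CPM in F1 females, and *Slc11a1*, a metal transporter of macrophage vesicles, at 3.68 to 7.09 and 7.30 to 11.2 CPM. The sexes did not overlap for *Il18bp* and *Slc11a1* and did for *Syk*. The differences in the F1s were 0.87 ± 0.09 (adjusted p = 1.2e-05), 0.83 ± 0.14 (adjusted p = 0.000664) and 0.86 ± 0.13 (adjusted p = 0.000461).

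All 10 genes of the list of Kupffer cell and macrophage markers were called higher in females in the F1s (11.5% of all genes) and in the inbreds (14.3% of all genes). Their summed level was 154 to 256 CPM in F1 males and 340 to 494 CPM in F1 females, and 102 to 298 CPM in inbred males and 297 to 1015 CPM in inbred females. *Clec4f* was the most abundant and no marker was at 0. Of the 12 T, NK and B cell markers 8 were tested, with *Trbc2* the most abundant. Of these 8, 7 were called higher in F1 females and 8 in inbred females, against the same shares of all genes. Whether the members follow the number of such cells was not tested. In RNA from whole liver, fewer cells cannot be told apart from less RNA per cell.

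Endothelial genes showed a sex-dependent strain difference. *Kdr*, the VEGF receptor, stood at 23.5, 17.4 and 13.5 CPM in CC019 males, at 44.6, 60.4 and 37.3 CPM in CC019 females and at 31.5 to 64.4 CPM in CC037. CC019 males were below all other inbreds. Strain by sex was 1.59 ± 0.28 for *Kdr* (adjusted p = 0.00311) and was called in 5 of 8 endothelial markers, all higher (8.78% of all genes, median 1.13). The markers summed to 145, 136 and 141 CPM in CC019 males and to 244 to 337 CPM in CC037, with *Clec4g* the most abundant and none at 0. The cause was not tested.

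When amino acids run short or protein folding fails, ATF4 activates genes of amino acid supply and of stress. *Asns*, asparagine synthetase, ran from 0.277 through 3.09 to 4.79 CPM in CC019 and from 0.338 through 0.686 to 1.07 CPM in CC037, with overlap. In CC019xCC037 it stood at 0.940, 3.13 and 0.624 CPM in males and 1.70, 9.78 and 13.3 CPM in females, against 0.316 to 1.42 CPM in CC037xCC019. The cross difference was 2.44 ± 0.64 (adjusted p = 0.0477, 4 of 6 mice), and in the list of ATF4 and the unfolded protein response 5 of 25 genes were higher and 5 lower (2.32 and 2.19% of all genes). *Asns* kept its call only without CC019xCC037 male 2, male 4 or female 1 (3 of 14 fits with a mouse left out, highest adjusted p = 0.0941). *Chac1*, which degrades glutathione, ran from 2.47 to 13.6 CPM in CC019, from 1.40 to 4.12 CPM in CC037 and from 0.473 to 5.89 CPM in the F1s, all overlapping. Its F1 level differed from the midpoint of the strains by −1.05 ± 0.33 (adjusted p = 0.0203), but not past the threshold without CC019 male 3 (adjusted p = 0.053).

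The amino acid response element TGATGNAA, the letters bound by ATF4 with a CEBP partner, was on either strand of 7.27% of member windows and 3.97% of all. It was found for *Apobec1*, *Arid5a*, *Asns*, *Chac1*, *G6pc*, *Nos1ap* and *Rab3il1*. The promoters of *Asns* (chr6:7693160-7693459, minus strand) and *Chac1* (chr2:119350992-119351291, plus strand) are shown, from RefSeq on GRCm38.p6, because both genes are known targets of ATF4, and capitals mark the element.
Asns: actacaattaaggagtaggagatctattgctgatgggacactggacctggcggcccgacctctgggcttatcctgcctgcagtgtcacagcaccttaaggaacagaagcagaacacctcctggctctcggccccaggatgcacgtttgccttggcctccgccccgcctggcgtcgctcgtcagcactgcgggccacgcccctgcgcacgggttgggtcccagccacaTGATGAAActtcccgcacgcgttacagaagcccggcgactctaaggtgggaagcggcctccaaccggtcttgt
Chac1: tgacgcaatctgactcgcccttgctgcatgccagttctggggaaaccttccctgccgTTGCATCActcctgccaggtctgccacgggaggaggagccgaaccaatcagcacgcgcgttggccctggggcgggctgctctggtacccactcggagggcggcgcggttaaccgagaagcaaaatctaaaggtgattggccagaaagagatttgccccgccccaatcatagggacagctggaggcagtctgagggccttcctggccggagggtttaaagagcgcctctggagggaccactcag

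Other letters were found at shares near those of all promoters. The E-box CACGTG was in 6.36% of member windows and 7.15% of all, and the nuclear receptor element AGGTCA in 12.7% and 16.3%. TGACGTCA, the cyclic AMP response element, was in 0% of member windows and 1.79% of all. A match describes the letters and was not tested as a binding site.

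F1s were compared with the midpoint of the strains, a contrast that shares its mice with S and A and cannot be told apart from the sequencing batch. It was called in 32 of 109 members (29.4%, against 24.1% of all), 16 higher (12.3% of all) and 16 lower (11.8% of all). Of the genes higher in CC037, 15 were above the midpoint and 3 below, and of those higher in CC019, 1 was above and 13 below. *B430219N15Rik*, a noncoding RNA, differed by −1.79 ± 0.28 (adjusted p = 3.26e-05, 13 of 14 mice), *Npas2* by 1.76 ± 0.28 (adjusted p = 4.73e-05, 12 of 14 mice), *Dapk1*, a kinase of cell death, by 0.42 ± 0.08 (adjusted p = 0.000661, 12 of 14 mice) and *Saa4* by −0.82 ± 0.17 (adjusted p = 0.00105, 14 of 14 mice). With the clock score as covariate *Npas2*, which is part of the score, was at 0.18 (adjusted p = 0.608). With CC019xCC037 F1s alone the contrast was called in 13 members, 8 of them among the 32, and in 1950 of all genes, against 3179. In that fit *Npas2* was at 1.05 (adjusted p = 0.0766), *Dapk1* at 0.19 (adjusted p = 0.252) and *Srebf1* at 0.41 (adjusted p = 0.175). With CC037xCC019 F1s alone *Saa4* was at −0.60 (adjusted p = 0.0564). *B430219N15Rik* stood at 3.0, 9.32 and 3.25 CPM in CC019 males, at 0.361 to 1.62 CPM in CC037 and at 0.101 to 1.45 CPM in the F1s, so F1s and CC037 overlapped.

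Reciprocal F1s have the same autosomes and differ in the parent from which each came, in the mother and, in males, in the X and Y chromosomes. The crosses differed in 17 of 109 members (15.6%, against 4.51% of all), 7 higher in CC019xCC037 (2.32% of all) and 10 lower (2.19% of all). *Dapk1* stood at 64.1 to 115 CPM in CC019xCC037 and at 99.2 to 158 CPM in CC037xCC019, with overlap. *Hapln4*, a matrix link protein, stood at 12.2 to 18.2 and 18.7 to 23.1 CPM, without overlap. *Nr4a1*, an immediate early nuclear receptor, stood at 6.04 to 56.1 and 0.821 to 7.76 CPM, with overlap. The differences were −0.51 ± 0.08 for *Dapk1* (adjusted p = 0.00572, 6 of 6 mice), −0.56 ± 0.09 for *Hapln4* (adjusted p = 0.00681, 6 of 6 mice), 0.61 ± 0.11 for *Mylip*, a ubiquitin ligase of the LDL receptor (adjusted p = 0.0129, 5 of 6 mice), −0.33 ± 0.07 for *Steap4* (adjusted p = 0.0199, 5 of 6 mice) and 2.62 ± 0.58 for *Nr4a1* (adjusted p = 0.0279, 6 of 6 mice).

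The number of members that differed between the crosses depended on single mice. It was 4 without CC019xCC037 female 2, 5 without CC037xCC019 male 2 and 6 without CC019xCC037 female 4 or CC037xCC019 male 1, male 3 or female 2. It was 9 without CC037xCC019 female 4, 10 without CC037xCC019 female 3 or female 5 and 11 without CC019xCC037 male 3. *Steap4* lost its call without CC019xCC037 female 2 (adjusted p = 0.0563), and *Acsl5* without CC019xCC037 female 2 (adjusted p = 0.0672), CC019xCC037 female 4 (adjusted p = 0.0658) or CC037xCC019 male 2 (adjusted p = 0.0532). *Nr4a1* lost it without CC037xCC019 male 1, male 2, male 3 or female 2 (highest adjusted p = 0.0672). *Dapk1*, *Hapln4* and *Mylip* kept their call in all 14 fits, and *Npas2* kept it in 2. In males alone *Hapln4* (adjusted p = 0.173), *Mylip* (adjusted p = 0.349), *Steap4* (adjusted p = 0.242) and *Acsl5* (adjusted p = 0.341) missed the threshold, and in females alone *Dapk1* (adjusted p = 0.0562) and *Steap4* (adjusted p = 0.0543) did.

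Allelic ratios were also compared between the crosses, as a gene expressed by parent of origin would differ there. The edgeR test called 0 of 109 members (0.148% of all tested genes, 0.0987% higher and 0.0494% lower). Its unadjusted p was below 0.05 in 6 of the 109 members and in 255 of all 4052 tested genes. An exact permutation of the mice also gave 6 members. In that exact permutation test the smallest p belonged to *Tkt* (0.15 ± 0.05, exact permutation p = 0.003) and *G6pc* (−0.11 ± 0.04, exact permutation p = 0.005), whose edgeR adjusted p were 0.535 and 0.521.

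Some strain differences came with RNA of other tissues in a few livers. Of white fat, skeletal muscle and exocrine pancreas, summed markers exceeded 100 CPM for skeletal muscle in CC037 female 1 (1480 CPM) and CC019xCC037 female 1 (3165 CPM), for white fat in CC019xCC037 male 3 (491 CPM) and for exocrine pancreas in CC019 male 2 (777.9 CPM) and CC019 female 2 (11053 CPM). Markers of gallbladder and intestine, at 19.7 CPM or more in every mouse, exceeded 100 CPM in CC019 female 2 (138 CPM), CC037 male 2 (102 CPM) and CC019 female 3 (100.5 CPM), and were not used to leave out mice. *Acta2*, smooth muscle actin and a marker of stellate cells, stood at 71.6 and 61.4 CPM in CC019 male 2 and CC019 female 2 and at 3.44 to 8.59 CPM in the other CC019 mice. *Slc25a4*, the ADP/ATP carrier of muscle and heart, stood at 69.6 CPM in CC037 female 1, and its S was 0.26 without that mouse. S of *Pkia*, an inhibitor of protein kinase A, was −0.13 without the same mouse, and S of *Prc1*, a protein of cell division, was −0.07 without CC019 female 3. Without the 5 mice, S was 0.80 for *Acta2*, 0.31 for *Aoc3*, 0.24 for *Eln*, 0.30 for *Mgp* and −0.09 for *Slc25a4*.

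Further members with a large S belonged to none of these groups. *Ighg2c*, an immunoglobulin heavy chain that shares reads with near-identical genes, had the lowest S (−5.58), from 21.3, 17.6 and 32.5 CPM in CC037 females 1 to 3 against 0.275 to 1.57 CPM in the other CC037 mice. *Igfbp2*, which binds insulin-like growth factors, stood at 678 to 1063 CPM in CC019, 235 to 576 CPM in CC037 and 302 to 737 CPM in the F1s, and *Alpl*, alkaline phosphatase, at 16.8 to 27.4, 6.62 to 15.8 and 8.16 to 22.5 CPM. For both genes the strains did not overlap and the F1s overlapped both.

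Few members lay next to each other. *Gm7694* and *Nos1ap* overlap on chromosome 1, where reads may belong to either, *Aoc3* and *G6pc* lie 25.6 kb apart on chromosome 11 and *Crip1* and *Ighg2c* 131.4 kb apart on chromosome 12. Farther apart but within 1 Mb were *Hapln4* and *Gdf15* (538.5 kb) and *Gm17491* and *Sfrp1* (928.2 kb) on chromosome 8. On chromosome 1, *Npas2* and *Il1r1* lie 861.8 kb apart. Chromosome 1 held 12 members of 283 genes that passed the filters (4.24%, against 2.87% over all autosomes).

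Over the 9 tests, apart from the descriptions of strain and allele, 24 of the 109 expressed members were called in none (37.5% of all 4052 genes that entered every test), 35 in 1 (33.2%), 32 in 2 (20.2%), 11 in 3 (7.13%), 4 in 4 (1.58%) and 3 in 5 (0.42%). The tests share mice with each other and with the values that chose the members, so the counts are not independent. *Ighg2c*, *Map1a*, *Prc1* and *Aoc3* were below the level required for the edgeR tests. Of the 113 members, 15 were in a pathway list (13.3%, against 4.75% of all genes that passed the filters). The lists were drawn up with earlier results of these data known, so this excess is partly set by their choice, and the cause of the strain difference was not tested for any of them.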

How the data were processed

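The deposited expected counts and TPM, which the authors estimated with Salmon 1.9.0 on a diploid transcriptome built with gffread 0.12.7 and imported with fishpond 2.8.0 (mouse build GRCm38), were used. RNA was from the median liver lobe, and libraries were poly(A)-selected, strand-specific and read as 150 base pairs from both ends. Allelic counts were rounded for tests, and totals were the sum of both alleles.

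Tests were edgeR 4.0.16 quasi-likelihood fits with TMM scaling in R 4.3.3, over genes that reached 0.5 CPM in most of the 29 mice, and p was adjusted by Benjamini-Hochberg with a threshold of 0.05. Totals of F1s were fitted with cross and sex, and those of inbreds with strain and sex. The strain difference itself was fitted with strain alone, without sex. The midpoint contrast was fitted with group and sex. Allelic tests had the mouse as block and the total over both alleles as library size. DESeq2 1.42.0 and the other alternatives gave second fits. Python 3.11.15 with numpy 2.4.6, pandas 2.3.3 and matplotlib 3.10.9 made the other tables and the figures.

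Alternatives were another tool, other scaling, no filter on low counts, a clock score as covariate, subsets of mice, a block for the number in the label, other library sizes, other limits and each mouse left out in turn. The cross by sex test, the clock slope, each sex alone for the cross test, the filter that kept genes with 0 counts in an inbred and the removal of 5 mice with markers of other tissues were chosen after seeing the data. The members and the gene lists were chosen with earlier results of these data known.

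Genes were named by a rule: the 10 highest and 10 lowest members by S, up to 5 members with the smallest p in each test past the threshold, members in a list with up to 4 other abundant genes of that list, the 2 genes nearest to each limit on either side, members within 1 Mb of each other, abundant genes of described marker lists, and up to 3 members with the largest and smallest spread. Promoters were windows of RefSeq transcripts on GRCm38.p6, searched on both strands.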

Additional observations from a re-analysis of the deposited data

Results flagged for a closer look

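Among the members looked at mouse by mouse, 2 mice stood apart from their group in 64 groups of 16 members. The rule was set so that chance alone marks about 1 in 20 groups, a rate that was not measured here. *Acaca* was at 362.5 CPM in CC037xCC019 female 3, where the others of that group had 156.6 to 216.4 CPM. *Acta2* was at 28.98 CPM in CC037 female 1, where the others had 2.17 to 5.29 CPM. That liver also held muscle markers, and the cause was not tested.

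Some differences were not the same in both sexes. Between the strains, the female minus the male difference was 3.29 for *Cyp39a1*, −2.05 for *Mbd1*, −2.80 for *Gdf15*, 1.36 for *Klb* and 0.71 for *Capn10*. Between the crosses it was 2.22 for *Npas2*, −2.80 for *Junb* and −3.51 for *Per3*. In the allelic ratio it was 1.87 for *Cyp39a1*, −0.14 for *Saa4* and −0.13 for *Scd1*.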

How the results depend on the processing

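In the tests, no named gene changed sign under an alternative. S changed sign when a mouse was left out for *Steap4* (−0.17 without CC019 male 3), *Slc25a4* (0.26 without CC037 female 1) and *Prc1* (−0.07 without CC019 female 3). Called members and all called genes are given as pairs.

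The midpoint contrast gave 13 members and 1950 genes with CC019xCC037 F1s alone, against 32 and 3179. In that fit *Dapk1* (adjusted p = 0.252), *Npas2* (0.0766) and *Srebf1* (0.175) lost their call. *Npas2* fell to 0.18 with the clock score as covariate (adjusted p = 0.608), and *Saa4* lost its call with CC037xCC019 F1s alone (0.0564). Each mouse left out in turn gave 26 to 37 members and 2808 to 3666 genes.

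The cross contrast gave 17 members and 595 genes. It gave 28 and 1577 with DESeq2, 1029 genes with the clock score as covariate, 903 genes without the 5 mice that held markers of other tissues, and 7 and 133 in males alone. In males alone *Hapln4* (0.173), *Mylip* (0.349), *Steap4* (0.242) and *Acsl5* (0.341) lost their call, and in females alone *Dapk1* (0.0562) and *Steap4* (0.0543). Leaving out each mouse gave 4 to 25 members and 158 to 1624 genes. With the replicate number as a block it gave 0 and 0 (32 members and 2105 genes unadjusted). That block gave 32 members for the midpoint and 52 for the strains. The correlation of mice sharing a number was −0.23 to 0.18 in inbreds and −0.06 to 0.37 in F1s, so the numbers do not mark a pairing.

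Sex in inbreds gave 21 members without the 5 mice, against 33. Strain by sex gave 35 members and 2359 genes, 1495 genes without a filter on low counts and 1410 genes with the clock score as covariate. Leaving out each mouse gave 20 to 40 members and 1367 to 3053 genes. Sex gave 32 to 45 members and 2277 to 3783 genes in F1s, and 23 to 33 and 3072 to 3753 in inbreds.

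Cross by sex gave 3 members and 86 genes. It gave 12 and 621 with DESeq2, 0 and 2 with the clock score as covariate, 35 genes with all 15 F1s, and 23 and 2381 without the 5 mice. Leaving out each mouse gave 0 to 15 members and 23 to 1353 genes. With the covariate no member was called: *Npas2* was at 0.74 (adjusted p = 0.806) and *Per3* at −0.08 (adjusted p = 0.988), while *Junb* stayed at −2.95 (adjusted p = 0.806). In the F1s this covariate cannot be told apart from cross by sex, so the loss of calls decides nothing.

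The clock slope gave 3 members and 175 genes, 7 and 401 with DESeq2, 68 genes with inbreds alone, 49 genes without the 5 mice, and 0 and 0 with F1s alone (7 and 567 unadjusted), where *Per3* was at an adjusted p of 0.426. Leaving out each mouse gave 2 to 6 members and 50 to 242 genes. *Spon2* was lost with inbreds alone (0.0873) and without the 5 mice (0.0786).

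The allelic ratio by cross gave 1 gene without the 5 mice, 2 to 6 genes when each mouse was left out, and 6 members in the unadjusted exact permutation. The allelic ratio by sex gave 1 member with allelic totals as library sizes and 1 to 3 members and 69 to 101 genes when each mouse was left out.

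The choice of members gave 73 with at least 5 CPM and 290.0 in males alone (63 shared with the 113), 127 without the 5 mice (82 shared), and 86 to 149 when each mouse was left out. The cause of these changes was not tested.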
